A study of Mus musculus with 15 samples.

Results

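Chromatin accessibility was described at the loci of 4 genes of the intestinal secretory lineage, Atoh1, Spdef, Gfi1 and Muc2. The members are all rows of the authors' region table that overlap a fixed mm9 window around each gene. The windows are chromosome 6, 64600000 to 64780000 (Atoh1), chromosome 17, 27780000 to 27920000 (Spdef), chromosome 5, 108080000 to 108220000 (Gfi1) and chromosome 7, 148800000 to 149050000 (Muc2). They held 11 of the 43020 regions, 3 at Atoh1, 2 at Gfi1 and 6 at Muc2. The table used here has no row in the Spdef window, and Spdef is therefore not analysed here. Region names carry running numbers, and many numbers have no row in the table used here. Between the rows that flank each window this holds for 5 of 8 numbers at Atoh1, 6 of 8 at Gfi1, 36 of 42 at Muc2 and 233 of 233 at Spdef. Member counts and window sums therefore cover only the listed rows, and a window without a row is not shown to be closed.

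ATAC-seq, which cuts and tags open DNA with a transposase, was done on 15 organoid lines of mouse colon cancer, with 3 lines in each of 5 groups. All lines carry the genotype labelled AKP, which the labels do not spell out, and all came from tumours in C57Bl6 recipient mice. Met1, Met2 and Met3 are lines grown from liver metastases after round 1, 2 or 3 of transplantation into the colon. The Primary2 and Primary3 lines were established from colon tumours in rounds 2 and 3, and primary lines of round 1 are not analysed here. The age of the mice and the descent of each line are not given in the sources used here, and every group is a set of cultured organoid lines, not tumour tissue.

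In the gut epithelium, Notch signalling in a progenitor induces the repressor HES1, which holds down ATOH1. Where ATOH1, a basic helix-loop-helix activator, escapes this block, the cell enters the secretory lineage. GFI1, a zinc finger repressor, acts after ATOH1 and favours goblet and Paneth cells over enteroendocrine cells, and SPDEF, an ETS factor, drives goblet cell maturation. MUC2 is the gel-forming mucin that goblet cells secrete to build the mucus layer of the colon. The title of the series names loss of GATA6, an endodermal zinc finger factor that binds motifs with GATA at their core.

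The promoters of the 3 genes with regions are shown because they are the regulatory sequence of these genes that could be read here. They are RefSeq sequences of build GRCm38.p6, the 250 bases before the gene's start, 5′ to 3′ on the gene's strand. All 3 symbols matched. The regions are in mm9, so whether a region covers one of these promoters was not determined. Capitals mark exact matches on either strand to a short list of motifs. For GATA factors the first motif searched was AGATAA, the next of this family was TGATAA, another spelling of the same site was AGATAG, and the last spelling was TGATAG. Among E-boxes, the kind of site that ATOH1 and its relatives bind, the palindromic form searched was CAGCTG, a related form with a changed centre was CATCTG, and the remaining form was CACCTG. The motif for the nuclear receptor HNF4 was CAAAGTCCA. For the intestinal factor CDX the motifs were TTTATGG and, as a separate and similar spelling, TTTATTG. For RBPJ, the effector of Notch, the motif searched was TTCCCAC. No marked match overlaps another.
Atoh1, chr6:64728875-64729124, plus strand: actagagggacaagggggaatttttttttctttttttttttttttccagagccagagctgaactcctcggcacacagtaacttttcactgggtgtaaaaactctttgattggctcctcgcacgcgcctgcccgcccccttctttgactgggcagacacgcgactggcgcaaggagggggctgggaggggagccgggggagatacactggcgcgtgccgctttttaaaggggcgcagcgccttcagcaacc
Gfi1, first start, chr5:107725806-107726055, minus strand: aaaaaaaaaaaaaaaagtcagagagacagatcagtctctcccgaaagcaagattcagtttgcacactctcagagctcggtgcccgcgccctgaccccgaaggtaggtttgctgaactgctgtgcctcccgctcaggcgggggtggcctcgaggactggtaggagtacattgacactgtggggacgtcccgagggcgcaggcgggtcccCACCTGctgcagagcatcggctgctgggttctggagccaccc
Muc2, chr7:141690090-141690339, plus strand: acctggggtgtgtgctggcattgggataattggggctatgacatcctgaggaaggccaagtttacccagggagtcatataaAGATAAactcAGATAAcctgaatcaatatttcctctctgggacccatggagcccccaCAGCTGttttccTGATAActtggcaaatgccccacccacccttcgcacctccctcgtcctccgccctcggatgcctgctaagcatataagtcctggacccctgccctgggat

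The Muc2 promoter held 3 GATA matches, AGATAA beginning 169 and 159 bases before the start and TGATAA beginning 100 bases before it. Of 32851 RefSeq promoter windows of this length, 26.5% held any of the GATA motifs and 1.35% held at least 3 matches. Muc2 also held CAGCTG 112 bases before the start (13% of promoters), and the first Gfi1 promoter held CACCTG 42 bases before it (17.2%). No motif searched was found in the Atoh1 window or in that of the second Gfi1 start. A match is a description of letters and not a bound site.

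Library totals over all regions ran from 285633 counts (Primary3 replicate 2) to 5916109 (Primary3 replicate 3). Values are given as CPM, which scales counts to a common library total after TMM normalisation. The 10% of regions with the highest authors' score took 25.2% of counts in Met1 replicate 1 and 31.01% to 35.3% in the other 14 libraries. Met1 replicate 1 held the highest CPM of all libraries at peak_82385 (Atoh1) and peak_75399 (Gfi1), so values of Met1 rest on a library that stands apart there.

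The largest fold change among the tested members lay at Atoh1. At peak_82389 (mm9 chromosome 6, 64734300 to 64735394) the later metastasis lines were 4.01-fold more accessible than primary lines of the same rounds. Together with peak_93747 in the Muc2 window, which was 2.52-fold less accessible in metastasis lines, it made up the 2 member regions called in rounds 2 and 3 together, of 10 tested. Among all tested regions 20.2% were called in that comparison, 11.2% higher and 8.98% lower, so the share among the members is near the background. The median log2 fold change of the 10 tested members was -0.11, against 0.04 over all tested regions. In bulk libraries, a region open in more cells and one more open in each cell cannot be told apart.

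**Figure D1:**
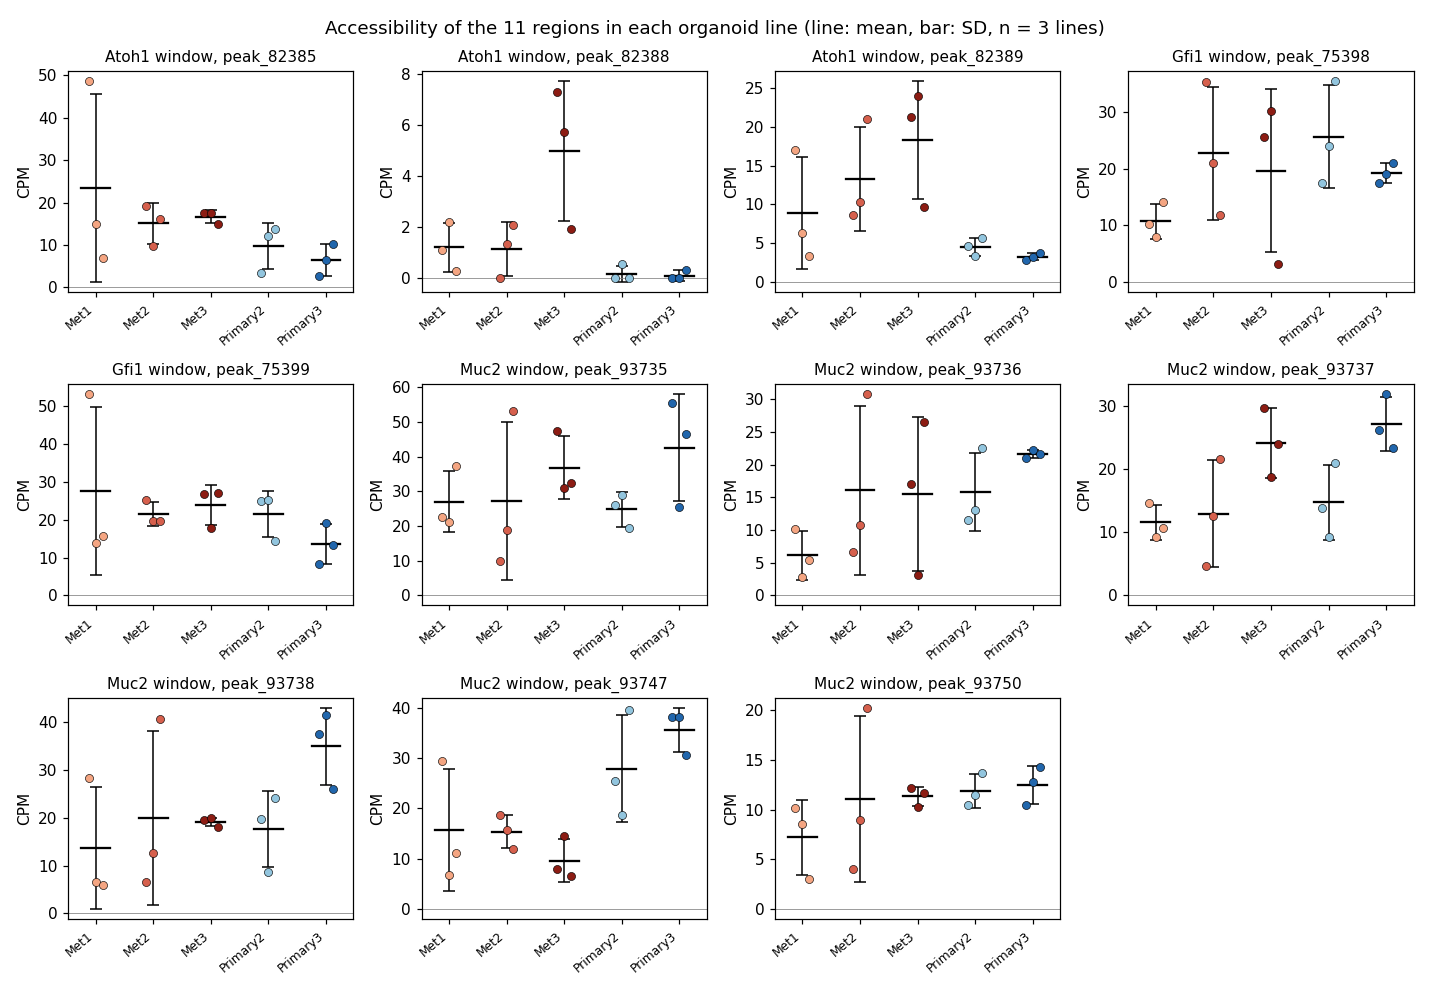
CPM (vertical axis, one scale per panel) of each of the 11 regions in the 15 organoid lines, with points for lines, a horizontal line for the group mean and a bar for the SD (n = 3). At peak_82389 the later metastasis lines lie above the primary lines of their round, and at peak_93747 they lie below them.

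At peak_82389 the values were 8.63, 10.3 and 20.97 CPM in Met2 replicates 1 to 3, and 21.3, 24.0 and 9.71 in Met3. Primary2 replicates held 4.63, 3.28 and 5.65 CPM, and Primary3 replicates 2.80, 3.19 and 3.78. Each metastasis line lay above every primary line of either round. The counts behind the primary values were small, with 8, 6 and 7 in Primary2 and 8, 1 and 22 in Primary3. Regions were tested only if enough lines reached a minimum count of 10 at the median library depth. Too few primary lines did so at peak_82389. The region therefore entered the test through the metastasis lines, where it is high.

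In round 2 the group means at peak_82389 were 13.3 ± 6.69 CPM for metastasis lines and 4.52 ± 1.19 for primary lines. In round 3 they were 18.3 ± 7.60 and 3.26 ± 0.50 CPM (SD, n = 3 in each group). The log2 fold change over both rounds was 2.00 ± 0.43 (SE, 95% interval 1.11 to 2.90, edgeR quasi-likelihood test, Benjamini-Hochberg adjusted p = 0.00196). Lines that did not overlap in both rounds, with metastasis higher, were found at 5.77% of tested regions. The median of chromosome 6 was itself 0.18 higher in metastasis lines on the log2 scale. With chromosome medians removed the log2 fold change at peak_82389 was 1.85 (adjusted p = 0.0037).

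By round, peak_82389 was called in Met3 against Primary3, where the log2 difference was 2.45 ± 0.62 (SE; adjusted p = 0.0133 by edgeR; 5.64% of all tested regions were called higher). In Met2 against Primary2 it was 1.55 ± 0.61 and was not called (edgeR adjusted p = 0.133). The difference between the rounds was 0.90 ± 0.86 and was not called (edgeR adjusted p = 0.909). The round 3 call was lost without Met3 replicate 1 (adjusted p = 0.0509) or 2 (0.0617) and without Primary3 replicate 1 (0.0954) or 3 (0.0632), with log2 fold changes between 2.18 and 2.66.

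In the first-round metastases peak_82389 held 16.98, 6.34 and 3.28 CPM in Met1 replicates 1 to 3, a spread that covers values of both later metastasis and primary lines. Met3 against Met1 gave a log2 difference of 1.23 ± 0.57 (SE; adjusted p = 0.189 by edgeR), and Met2 against Met1 0.74 ± 0.58 (adjusted p = 0.589). Without Met1 replicate 1, the library that stood apart, the Met3 against Met1 value was 1.91 and was called (edgeR adjusted p = 0.0408).

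Peak_82388 (chromosome 6, 64713955 to 64714239), a narrow region of 284 bp that lies 20061 bases before peak_82389, had too few reads to be tested. Met2 lines gave 0, 3 and 3 counts and Met3 lines 12, 15 and 3. The primary lines had 0, 1 and 0 counts in Primary2 and 0, 0 and 2 in Primary3, and Met1 had 1, 7 and 1. Most of its 48 reads thus came from Met3 replicates 1 and 2, the lines that were also highest at peak_82389. With no filter on low counts edgeR called it higher in metastasis lines in rounds 2 and 3 together (adjusted p = 0.0148) and in round 3 (adjusted p = 0.0193). No fold is given, since 3 reads stand for all 6 primary lines.

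Peak_82385 (chromosome 6, 64677758 to 64680091) was the widest Atoh1 region at 2333 bp, and wider than most regions in the table (median 746 bp). It held 19.3, 9.86 and 16.1 CPM in Met2 and 17.6, 17.5 and 14.9 in Met3. Primary2 lines held 3.48, 12.04 and 13.7 CPM, and Primary3 lines 2.80, 6.37 and 10.1. Met3 and Primary3 did not overlap, which was seen with metastasis higher at 18.0% of tested regions, while Met2 and Primary2 overlapped.

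The log2 fold change of peak_82385 in rounds 2 and 3 together was 0.97 ± 0.44 (SE, 95% interval 0.06 to 1.89, edgeR adjusted p = 0.13), so no difference was called at this depth. Met1 held 48.7, 14.9 and 6.86 CPM there, the widest range of any group, with the high value in replicate 1. The 3 Atoh1 regions varied together across the 15 libraries, with Pearson r of 0.51, 0.71 and 0.80 between pairs on log2 CPM. These values are a description, since the regions share the libraries and their depth.

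Per kb of region, peak_82388 and peak_82389 had higher means than peak_82385 in Met3 (17.6, 16.8 and 7.15 CPM per kb), and peak_82385 was near peak_82389 in Primary3 (2.76 and 2.98). In Met1 the highest of the 3 means was that of peak_82385 (10.1 CPM per kb, against 8.11 at peak_82389 and 4.29 at peak_82388).

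**Figure D2:**
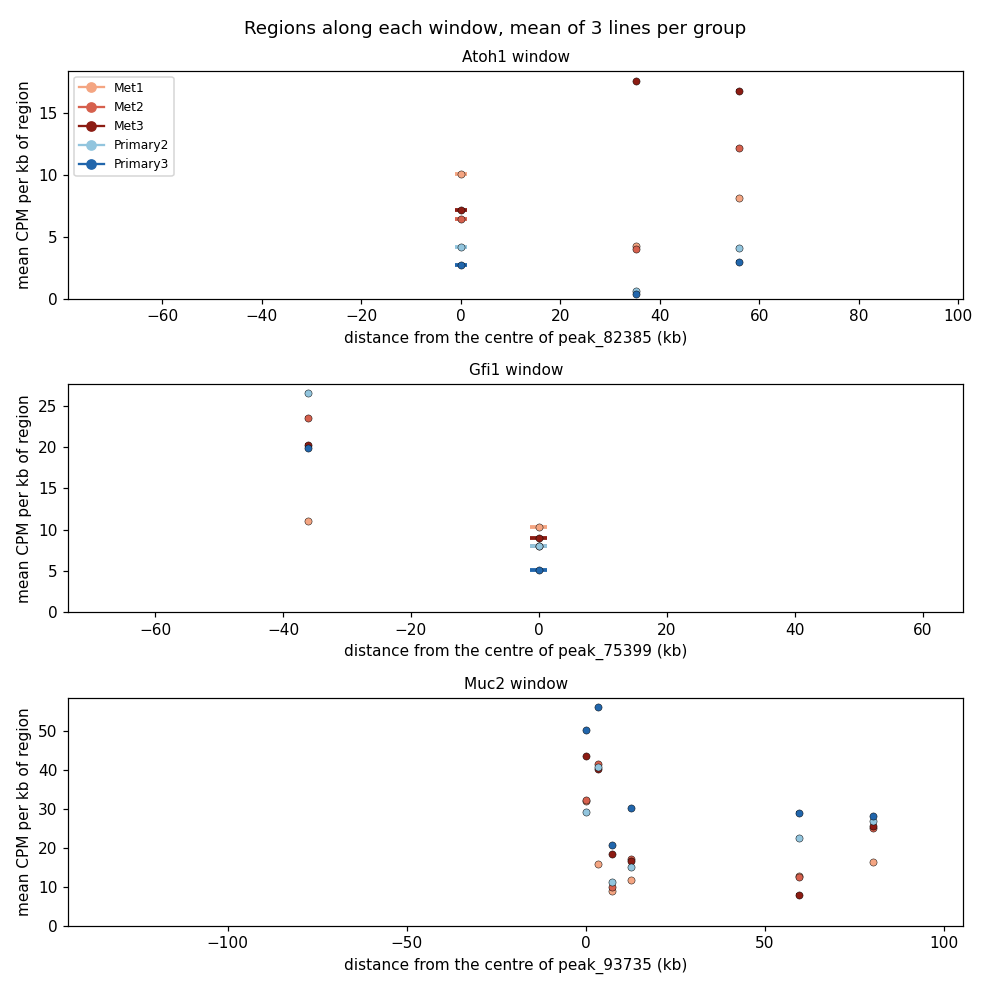
Mean CPM per kb of region (vertical axis) along the Atoh1, Gfi1 and Muc2 windows, by distance in kb from the centre of the region with the highest mean log2 CPM. Points are group means of 3 lines and bars the width of the region. At the 3 Atoh1 regions the metastasis means lie above the primary means, and at the Muc2 region 59.4 kb from peak_93735 they lie below them.

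Gfi1 had 2 regions, and neither was called in any of the 8 comparisons. Peak_75398 (chromosome 5, 108116988 to 108117955) held 35.2, 21.1 and 11.9 CPM in Met2 and 25.5, 30.1 and 3.24 in Met3. Primary2 lines held 17.4, 24.1 and 35.5 CPM and Primary3 lines 17.5, 19.1 and 20.98. The metastasis lines spanned a wider range than the primary lines and overlapped them in both rounds. The log2 fold change was -0.05 ± 0.37 (SE, 95% interval -0.81 to 0.70, edgeR adjusted p = 0.943), an interval that still allows a fold of more than 1.5 in either direction. Met1 lines lay at 10.2, 7.93 and 14.0 CPM.

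Peak_75399 (chromosome 5, 108152268 to 108154941), 2673 bp wide, had the lower signal per kb of the Gfi1 pair over all lines (8.10 against 20.2 CPM per kb) and the lowest authors' score among the members (5.17). It held 25.2, 19.7 and 19.6 CPM in Met2, 26.7, 17.9 and 27.2 in Met3, 24.9, 25.2 and 14.5 in Primary2 and 8.39, 19.1 and 13.4 in Primary3. The 2 lowest of these 12 values were in Primary3, whose replicate 2, with 6 reads, overlapped Met3. The log2 fold change was 0.47 ± 0.33 over both rounds (95% interval -0.20 to 1.14, edgeR adjusted p = 0.347). In round 3 alone it was 0.96 ± 0.47 (edgeR adjusted p = 0.219).

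The Gfi1 regions did not vary together across libraries (Pearson r = -0.19 on log2 CPM, and -0.06 without the 2 shallowest libraries). Chromosome 5 differed from line to line, with a median log2 deviation from -0.28 in Primary2 replicate 3 to 0.62 in Met2 replicate 1. The latter line had the second-highest CPM at peak_75398, after Primary2 replicate 3, the line with the lowest chromosome median. The part of the chromosome in the Gfi1 values of single lines was not tested. With chromosome medians removed the summed Gfi1 signal changed sign, from 0.12 to -0.10 on the log2 scale, both inside the spread between lines (SD 0.35).

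The Muc2 window had the highest summed group means of the 3 windows, a value not corrected for size. It is also the widest (250 kb, against 180 at Atoh1 and 140 at Gfi1) and has the most listed regions, 6, of which 1 was called. Muc2 lies between Muc6 and Muc5ac, other gel-forming mucin genes, in RefSeq's gene order of GRCm38.p6, and which of these genes each region lies in was not determined. Peak_93747 (chromosome 7, 149003345 to 149004580) held 18.6, 15.7 and 11.9 CPM in Met2 and 7.90, 14.5 and 6.47 in Met3. Primary2 lines held 25.5, 18.6 and 39.5 CPM, and Primary3 lines 38.1, 38.2 and 30.6. Each metastasis line lay below every primary line of its round, though Met2 replicate 1 (18.595) and Primary2 replicate 2 (18.6007) were almost equal.

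Peak_93747 fell by 1.33 ± 0.33 on the log2 scale in metastasis lines over both rounds (SE, 95% interval -2.01 to -0.65, edgeR adjusted p = 0.00554). Its round 2 means were 15.4 ± 3.37 CPM for metastasis and 27.9 ± 10.7 for primary lines, and its round 3 means 9.62 ± 4.28 and 35.7 ± 4.37 (SD, n = 3 in each group). Lower metastasis lines without overlap in both rounds were found at 4.96% of tested regions. In round 3 the log2 fold change was -1.82 ± 0.47 (edgeR adjusted p = 0.015; 4.52% of all tested regions were called lower), and in round 2 it was -0.84 ± 0.46 and not called (adjusted p = 0.308). The difference between rounds was -0.99 ± 0.66 (edgeR adjusted p = 0.857).

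The round 3 call of peak_93747 was lost without Met3 replicate 1 (edgeR adjusted p = 0.0715) or 3 (0.0655) or without Primary3 replicate 1 (0.0769), with log2 fold changes between -1.76 and -1.63. Chromosome 7 was 0.09 lower in metastasis lines, and with chromosome medians removed the value over both rounds was -1.23 (adjusted p = 0.00861). Met1 lines held 29.4, 6.66 and 11.04 CPM at peak_93747. Replicates 2 and 3 lay below the primary lines and replicate 1, the library that stood apart, among them.

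The other 5 Muc2 regions showed no called difference between metastasis and primary lines, with log2 fold changes from -0.32 to -0.10 over both rounds and edgeR adjusted p of at least 0.646. At peak_93738 each Met3 line (19.4, 19.8 and 18.1 CPM) lay below each Primary3 line (37.4, 41.4 and 26.0). The log2 fold change in round 3 was -0.82 ± 0.56 (SE, edgeR adjusted p = 0.41). Lower metastasis lines without overlap in round 3 were found at 13.3% of tested regions. Peak_93735 (chromosome 7, 148944143 to 148944990) had the highest mean signal of all members and the highest authors' score (59.5). It held 9.96, 18.8 and 53.1 CPM in Met2, 47.4, 30.9 and 32.4 in Met3, 26.1, 29.0 and 19.4 in Primary2 and 55.6, 25.5 and 46.6 in Primary3. Met2 alone spanned nearly the range of all 15 libraries. Its log2 fold change was -0.10 ± 0.30 (SE, 95% interval -0.72 to 0.53, edgeR adjusted p = 0.872). Met1 held 22.6, 21.3 and 37.3 CPM.

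Peak_93736 (148947778 to 148948164), peak_93737 (148951213 to 148952523) and peak_93738 (148956485 to 148957641) followed within 12.5 kb of peak_93735. In Met2, replicate 3 was the highest line and replicate 1 the lowest at each of them, with 30.8 and 6.64 CPM at peak_93736, 21.7 and 4.65 at peak_93737 and 40.5 and 6.64 at peak_93738. The same order held at peak_93750 (149024641 to 149025083, 20.3 and 3.98 CPM). At peak_93747 it was reversed, with 11.9 CPM in replicate 3 and 18.6 in replicate 1.

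Across the 15 libraries, the 5 regions without a call correlated with each other at Pearson r of 0.42 to 0.83 on log2 CPM. Peak_93747 correlated with them at -0.10 to 0.51. The regions share the libraries and their depth, and these values describe the 15 lines without a test. The correlation of peak_93737 with peak_93738 was the highest (0.83).

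Between the primary groups, the means of these regions were higher in Primary3 than in Primary2, though none was called. Peak_93737 held 27.2 ± 4.31 CPM in Primary3 and 14.7 ± 5.88 in Primary2 and peak_93738 34.9 ± 8.02 and 17.5 ± 7.94 (SD, n = 3 each), in both cases without overlap (higher Primary3 lines without overlap were found at 7.05% of tested regions). Their log2 fold changes were 0.85 ± 0.46 and 0.96 ± 0.57 (SE, edgeR adjusted p = 0.784 and 0.822). Over the whole table edgeR called 0 regions between these groups, while 2646 had an unadjusted p below 0.05. DESeq2 called 51, which was 0.248% of the regions to which it gave an adjusted p.

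**Figure D3:**
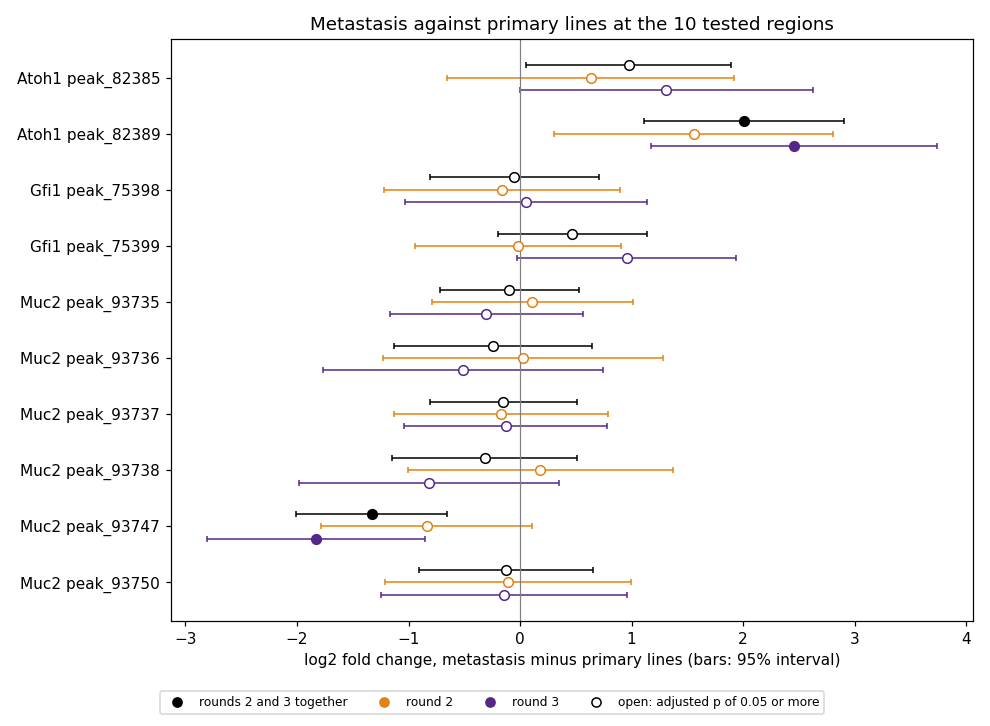
Log2 fold change of metastasis minus primary lines (horizontal axis, bars 95% intervals) for the 10 tested regions in round 2, round 3 and both together, with filled points for an adjusted p under 0.05. Filled points are seen at peak_82389, to the right of 0, and peak_93747, to the left, for round 3 and for both rounds together.

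In Met2 against Primary2, 0 of 10 tested member regions were called by edgeR and 0 by DESeq2, against 6.21% called over all regions by edgeR. An unadjusted p under 0.05 by edgeR was found at 1 of 10, against 8329 of the 39952 regions tested. In Met3 against Primary3, 2 of 10 were called, against 10.2%. The difference of the metastasis effect between rounds was called at 0 of 10 by edgeR, with 0 at an unadjusted p under 0.05. DESeq2 called 0 as well, but it gave no adjusted p to part of the regions. A member without one could not be called. Over all 39952 tested regions edgeR also called 0 (0%), with 2568 at an unadjusted p under 0.05, so the count says nothing particular about the members. DESeq2 called 14, which was 0.068% of the regions to which it gave an adjusted p.

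Along the metastasis series no member region was called. In Met3 against Met1, 3 of 10 had an unadjusted p under 0.05 (peak_82389, peak_93736 and peak_93737), against 9365 of the 39952 regions tested, a share near that of the members. Neither edgeR nor DESeq2 called a member (0 of 10), and edgeR called 9.54% over all regions. The median log2 fold change of the members was 0.71, against -0.04 over all regions, and 7 of 10 were above 0, against 47.9% of all regions. This median and this share were not tested. The members are not separate observations, since several Muc2 regions varied together across the libraries. At peak_93737 each Met3 line (29.8, 18.7 and 24.0 CPM) lay above each Met1 line (14.7, 9.20 and 10.7), and the log2 difference was 1.10 ± 0.45 (adjusted p = 0.133 by edgeR). At peak_93750 the Met3 lines (12.1, 10.3 and 11.7 CPM) also lay above the Met1 lines (10.2, 8.56 and 2.98), by a narrow margin. The log2 difference there was 0.73 ± 0.55 (SE, edgeR adjusted p = 0.461). Met3 lines were higher without overlap at 15.9% of tested regions.

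Peak_93736 held 10.2, 2.85 and 5.37 CPM in Met1 and 17.01, 3.05 and 26.5 in Met3, with Met3 replicate 2 among the Met1 lines (log2 fold change 1.46 ± 0.66, edgeR adjusted p = 0.177). In Met2 against Met1, 1 of 10 had an unadjusted p under 0.05 by edgeR (peak_93736), against 6421 of the 39952 regions tested. There edgeR and DESeq2 called 0 of 10, and edgeR called 3.55% over all regions. In Met3 against Met2 the members had 0 of 10 at an unadjusted p under 0.05 and 0 called by both tools. Over all 39952 regions edgeR called 0 there too (0%), with 2926 at an unadjusted p under 0.05. DESeq2 called 45, which was 0.168% of the regions to which it gave an adjusted p. A member without one could not be called by DESeq2.

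Summed over its listed regions, the Atoh1 window held 27.9, 21.5 and 39.1 CPM in Met2 and 46.2, 47.3 and 26.5 in Met3, against 8.11, 15.9 and 19.4 in Primary2 and 5.59, 9.56 and 14.3 in Primary3. Each later metastasis line lay above each primary line. The order of group means was Met3 (40.0 ± 11.7), Met1 (33.6 ± 29.5), Met2 (29.5 ± 8.92), Primary2 (14.4 ± 5.76) and Primary3 (9.81 ± 4.34). Neighbours in this order within the metastasis groups and within the primary groups overlapped, and Met1 also overlapped the primary lines.

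The Muc2 window held 50.5, 79.4 and 178.2 CPM in Met2, 133.6, 97.3 and 119.1 in Met3, 107.1, 90.3 and 140.4 in Primary2 and 188.8, 172.0 and 162.5 in Primary3. The order of means was Primary3 (174.5 ± 13.3), Met3 (116.7 ± 18.3), Primary2 (112.6 ± 25.5), Met2 (102.7 ± 67.0) and Met1 (81.4 ± 30.9). Primary3 did not overlap Met3, and the other neighbours in this order overlapped. At Gfi1 the group means ran only from 32.8 ± 6.32 in Primary3 to 47.2 ± 4.26 in Primary2. The Met1 lines there spanned 21.9 to 63.4 CPM, beyond the range of the 4 other groups. On the log2 scale the summed difference between metastasis and primary lines was 1.49 at Atoh1 (SD between lines 0.53), 0.12 at Gfi1 (0.35) and -0.44 at Muc2 (0.50), given with no test because these are sums over the members.

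**Figure D4:**
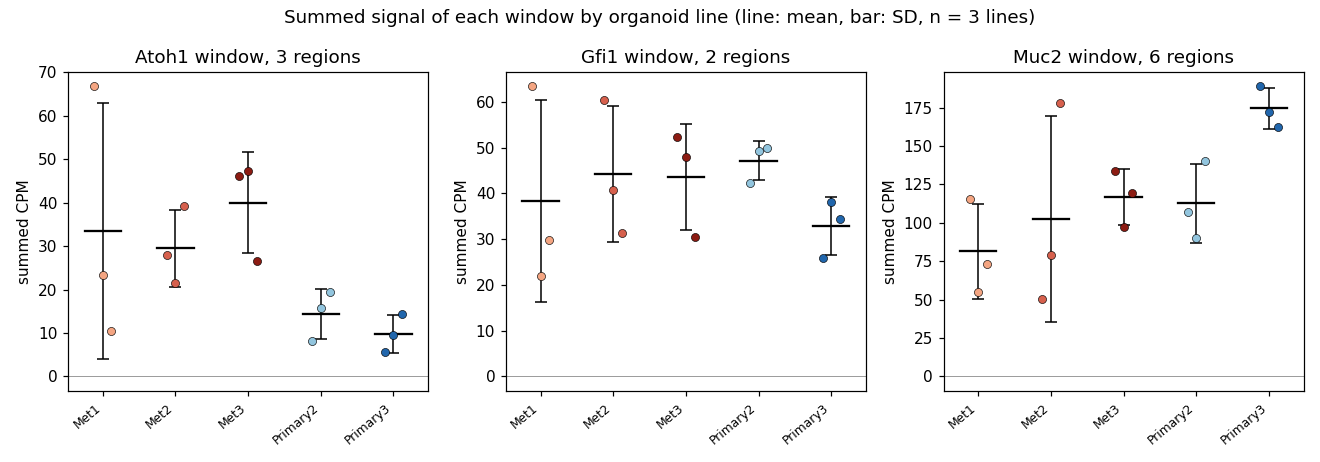
Summed CPM (vertical axis) of all regions of the Atoh1, Gfi1 and Muc2 windows in each of the 15 lines, with the group mean and SD (n = 3). The later metastasis lines lie above the primary lines at Atoh1, between 21.5 and 47.3 against 5.59 and 19.4, and the Primary3 lines lie highest at Muc2 apart from Met2 replicate 3.

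For each locus, the region with the highest mean log2 CPM, a value not corrected for width, was used. Regions elsewhere in the genome with the most similar course to it over the 15 libraries were taken by Pearson r of log2 CPM. For peak_82385 (Atoh1) they were peak_52556 on chromosome 2 (32259348 to 32260526, r = 0.93), peak_83755 on chromosome 6 (89983335 to 89984186, r = 0.91) and peak_27410 on chromosome 14 (29797380 to 29797838, r = 0.90). For peak_75399 (Gfi1) all 3 lay close together on the same chromosome 5, at peak_74476, peak_74493 and peak_74488 (93911042 to 93990206, r of 0.90 each). For peak_93735 (Muc2) they were peak_39048 on chromosome 17 (7019074 to 7019335, r = 0.91), peak_21773 on chromosome 12 (105989957 to 105990862, r = 0.86) and peak_55642 on chromosome 2 (127867084 to 127867501, r = 0.83). These are the highest of 39942 values for each locus, over libraries that share their depth, and the high values of Met1 replicate 1 enter those of peak_82385 and peak_75399.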

How the data were processed

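The deposited table holds raw counts per region for 15 libraries. Build mm9 and the tools bedtools, Bowtie, MACS2, Picard and SAMtools are listed in the submitters' processing notes, without roles or versions. Region names say that all samples were used together to call them, and each carries a score by the authors of unstated scale. Transposase shift and duplicate removal are not given in the sources used here, and coordinates are printed as in the table.

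Groups came from sample titles, and library names tied columns to samples. No pairing of equal replicate numbers is given in the sources used here. Deviations from the group mean correlated at r over 0.1 in 2 of 30 same-numbered pairs and 8 of 60 other pairs between groups. These values cannot show whether lines share descent. P-values set a difference against the spread among these lines, estimated with sharing across regions and groups. They treat the lines as independent, which the sources used here do not establish.

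Regions passing filterByExpr (minimum count 10, minimum total 15), 39952 of them, were tested with edgeR 4.0.16 (R 4.3.3) by a quasi-likelihood F test with robust dispersion, on 5 group means, TMM scaling and Benjamini-Hochberg adjustment over all tested regions (called under 0.05). SE is the log2 fold change over the root of F. CPM uses TMM-scaled totals, and log2 CPM a prior count of 2. Summed windows use log2(CPM + 1). Alternatives included DESeq2 1.42.0. The edgeR comparison of rounds 2 and 3 together was tried on simulated counts of independent lines, with changes set only in regions at or above the median count. This does not show how changes in regions with fewer reads, related lines or libraries that stand apart are handled. Python 3.11.15 and matplotlib 3.10.9 drew figures.

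The members and the lists were chosen with earlier results of these data known. Named were regions called in any comparison, the region with the highest mean log2 CPM per locus and the 3 most similar elsewhere. The remaining members were added so that each is accounted for. Lists of other secretory, Notch and cell type genes needed an mm9 annotation and are not used here, so the labelled cell type was not checked against markers.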

Additional observations from a re-analysis of the deposited data

How the results depend on the processing

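The 2 calls in rounds 2 and 3 together, peak_82389 and peak_93747, were both made under each of 9 alternatives and each of 15 left-out replicates, and with no filter peak_82388 was called too. Log2 fold changes there ran from 1.76 to 2.15 at peak_82389 (adjusted p up to 0.0108) and from -1.56 to -1.17 at peak_93747 (adjusted p up to 0.0218). In Met3 against Primary3 single replicates left out gave counts from 0 to 2, with 0 without Met3 replicate 1 or Primary3 replicate 1, 1 without Met3 replicate 2, Met3 replicate 3 or Primary3 replicate 3, and 2 otherwise. In Met3 against Met1 the same gave 0 to 1, and the count was 1 without the 2 shallowest libraries (peak_82389, log2 fold change 1.93, adjusted p = 0.0378). In the other 5 comparisons it stayed at 0 in each setting run. A region to which DESeq2 gave no adjusted p counted there as not called.

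At peak_93735, never called, the log2 fold change ran from -0.54 to 0.0875 with single replicates left out. It turned from -0.10 to 0.0875 without Met2 replicate 1, to 0.0057 without Met2 replicate 2 and to 0.01 without Primary3 replicate 1. The median correlation of regions within a locus moved from -0.19 to -0.0584 at Gfi1 and from 0.51 to 0.62 at Muc2 without the 2 shallowest libraries. With the replicate number as a block, 2 regions were called in rounds 2 and 3 together and 2 in round 3 (2.02 and -1.32 over both rounds at peak_82389 and peak_93747), and no call among the members changed. The cause of these changes was not tested.

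The median region held 4 counts in Primary3 replicate 2, which limits what single lines show at the Atoh1 regions, where the lowest primary line had 2 reads at peak_82385, 0 at peak_82388 and 1 at peak_82389.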
